A study of Cricetulus griseus with 6 samples.

Results

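The genes that load peptides onto MHC class I molecules were followed in CHO-T cells after silencing of *Xbp1*, the transcription factor that IRE1α activates by splicing. The 6 genes are *B2m*, *Tap1*, *Tap2*, *Tapbp*, *Erap1* and *Nlrc5*, taken by gene symbol, and each was found on 1 row of the 27873 rows that every library holds. CHO-T cells come from the Chinese hamster line CHO, an ovary line into which a retrovirus brought the cDNA of mouse T-cadherin (*Cdh13*) under puromycin selection, and all libraries carry this transgene. Of the libraries, 3 are from cells given negative control siRNA and 3 from cells given 1 *Xbp1* siRNA sequence, each for 48 h, so effects of silencing *Xbp1* and effects of that siRNA on other transcripts cannot be told apart. Nothing in the labels ties the 3 libraries of a group to separate cultures, and p-values measure only the spread between these libraries. Each level is in FPKM, a fragment number corrected for exon length and for the reads mapped in that library.

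MHC class I molecules show short peptides from inside the cell to cytotoxic T cells. The proteasome and cytosolic peptidases make the peptides, the TAP transporter (a pair of TAP1 and TAP2) pumps them into the ER, and ERAP1 trims them there to length. Tapasin, the product of *Tapbp*, holds the empty heavy chain and its light chain β2-microglobulin (*B2m*) at TAP with the help of the ER chaperone calreticulin and the disulfide isomerase ERp57. NLRC5 is the transactivator that drives many of these genes, and interferon gamma raises them in most cell types.

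In the libraries with control siRNA *Xbp1* was at 26.0, 26.2 and 28.4 FPKM, and with *Xbp1* siRNA it was at 2.18, 2.11 and 1.39 FPKM, a reduction of 93.0% (log2 fold change −3.78, adjusted p = 5.61e-06, limma). Expression was compared on the log2(FPKM + 0.1) scale with limma over the 14361 rows with a mean of at least 0.1 FPKM. A gene passed at an adjusted p (Benjamini-Hochberg, over all genes tested) under 0.05, and it was called when its log2 fold change was also at least 1 in size. Among all genes tested 20.2% passed and were higher with *Xbp1* siRNA, 20.2% passed and were lower (40.4% in all), and 5.19% were called in either direction. The summed FPKM was between 646651 and 666267 with control siRNA and between 593487 and 600986 with *Xbp1* siRNA. When each library was scaled to the same sum, chosen with the data already seen, the median log2 fold change of all genes moved from 0.00634 to 0.136, with 4555 genes passing higher and 1869 lower against 2898 and 2904 as deposited. Relative depth, read from the steps between low FPKM values, was between 94.0% and 116% of control replicate 1. Among 5 immune cell markers (*Ptprc*, *Itgam*, *Cd14*, *Cd3e* and *Adgre1*) 4, among them *Ptprc*, were listed at 0 in every library, and their summed level lay between 0 and 0.0595 FPKM with control siRNA and between 0 and 0.0256 FPKM with *Xbp1* siRNA. The labels give the tissue as ovary. Of 7 ovarian markers 5 were matched by symbol, and the summed level of the 5 was between 5.32 and 8.45 FPKM. *Fshr* and *Zp3* were listed at 0 in all libraries. *Amh*, *Inha* and *Star* were above 0 in every library, with means of 2.69, 2.63 and 0.822 FPKM with control siRNA. With *Xbp1* siRNA their means were 2.95, 3.52 and 1.07 FPKM, and none of them passed. Of 6 fibroblast and epithelial markers 5 were matched, *Col1a1* and *Krt18* were listed at 0, and the sum was between 384 and 404 FPKM with control siRNA and between 324 and 348 FPKM with *Xbp1* siRNA. Nearly all of that sum was *Vim*, which passed as lower (log2 fold change −0.31, adjusted p = 0.000738, limma), while *Fn1* went from 13.1 to 23.3 FPKM (0.83, adjusted p = 2.15e-05) and *Epcam* from 1.82 to 4.72 FPKM (1.32, adjusted p = 0.000256). Their part in the results below was not tested.

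Of the 6 class I loading genes, 4 passed and were higher with *Xbp1* siRNA (*B2m*, *Tap1*, *Tap2* and *Tapbp*), 1 passed and was lower (*Erap1*), and *Nlrc5* did not pass. Thus 5 of the 6 passed in either direction, beside 40.4% of all genes tested, and 20.2% of all genes passed in each direction. None of the 6 was called, since no change reached 1 on the log2 scale, against 5.19% of all genes. In *B2m*, *Tap1*, *Tap2* and *Tapbp* the lowest library with *Xbp1* siRNA lay above the highest with control siRNA, a separation that 26.1% of all genes showed in that direction. In *Erap1* the libraries separated the other way, as in 25.8% of all genes. With 3 libraries a group no exact permutation test can give a two-sided p under 0.1, so the calls rest on the fit across all genes.

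**Figure D1:**
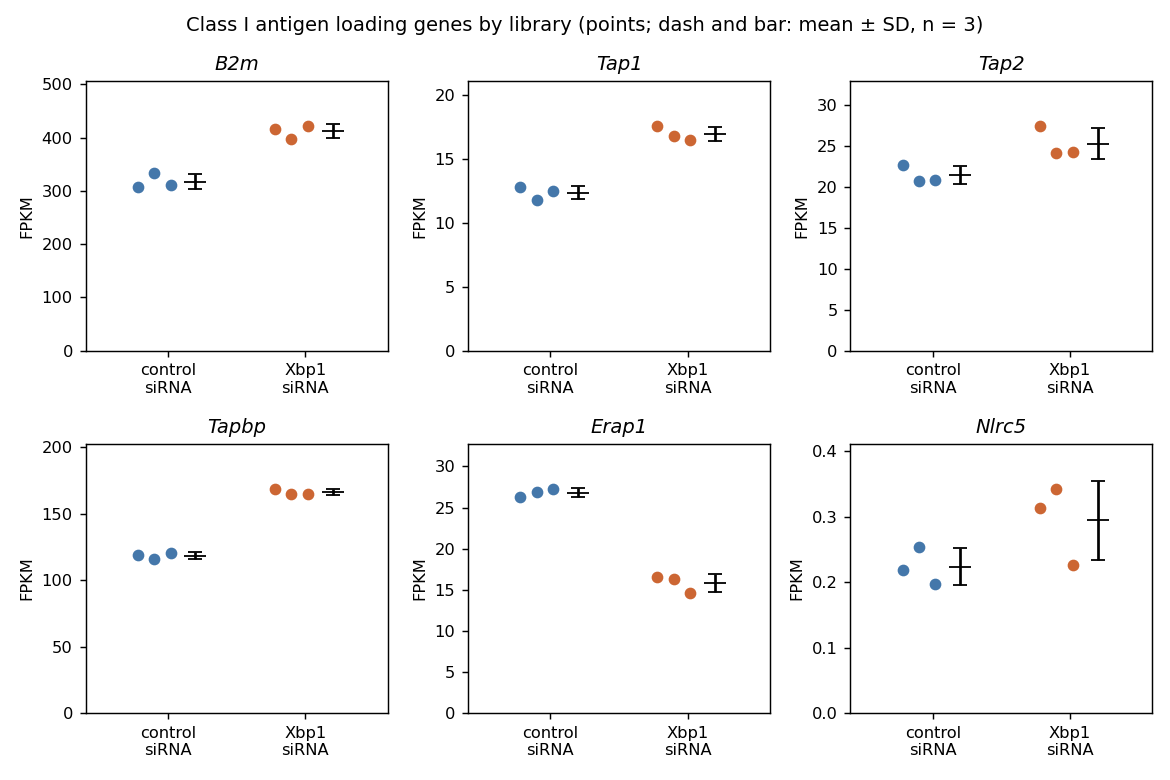
FPKM of *B2m*, *Tap1*, *Tap2*, *Tapbp*, *Erap1* and *Nlrc5* in each library with control siRNA (blue points) and *Xbp1* siRNA (orange points), with each vertical axis starting at 0 and the dash and bar giving the mean and SD of 3 libraries. The points of *B2m*, *Tap1*, *Tap2* and *Tapbp* lie higher with *Xbp1* siRNA without overlap, those of *Erap1* lie lower without overlap, and those of *Nlrc5* overlap.

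*Tapbp*, which encodes tapasin, had the most precise increase. Its levels were 119, 116 and 121 FPKM in control replicates 1, 2 and 3 and 169, 165 and 165 FPKM in the libraries with *Xbp1* siRNA. The spread within a condition, 2.12% and 1.38% of the mean, was small beside the 39.8% rise of the mean between 119 ± 2.52 FPKM with control siRNA and 166 ± 2.30 FPKM with *Xbp1* siRNA (SD, n = 3 each). The log2 fold change was 0.48 (standard error 0.0311, 95% interval 0.41 to 0.56, adjusted p = 2.74e-05 from limma), and its p-value ranked 352 among all genes tested.

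*B2m*, the light chain shared by all class I molecules, was the most abundant of the 6 genes. It had 307, 334 and 312 FPKM with control siRNA and 417, 398 and 422 FPKM with *Xbp1* siRNA, so each library with *Xbp1* siRNA stood above all 3 controls. The means were 318 ± 14.2 and 412 ± 12.5 FPKM (SD, n = 3 each), a rise of 29.9%, or on the log2 scale of 0.38 (95% interval 0.28 to 0.47, adjusted p = 0.000333, limma). By mean level *B2m* stood at rank 267 of 16500 rows above 0 with control siRNA and at rank 162 of 16836 with *Xbp1* siRNA.

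The 2 subunits of the peptide transporter were both higher. *Tap1* had 12.8, 11.8 and 12.5 FPKM with control siRNA and 17.6, 16.8 and 16.5 FPKM with *Xbp1* siRNA, a rise of 37.2% in the mean. Its log2 fold change was 0.45 (95% interval 0.31 to 0.59, adjusted p = 0.000802, limma). *Tap2* had 22.7, 20.7 and 20.8 FPKM with control siRNA and 27.4, 24.1 and 24.2 FPKM with *Xbp1* siRNA. Replicate 1 was the highest library of *Tap2* in both groups, and the gap between the highest control and the lowest *Xbp1* siRNA library was narrow. The mean of *Tap2* rose by 18.0%, with a log2 fold change of 0.24 (95% interval 0.08 to 0.40, adjusted p = 0.0278, limma). This was the smallest change among the 5 genes that passed, and it did not pass without control replicate 2 (adjusted p = 0.0854, limma), without control replicate 3 (adjusted p = 0.0809), without *Xbp1* siRNA replicate 1 (adjusted p = 0.0745) or when limma was run without the intensity trend (adjusted p = 0.0599).

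*Erap1*, the ER aminopeptidase that trims class I peptides, moved against the other 4. It had 26.3, 26.9 and 27.3 FPKM with control siRNA and 16.6, 16.3 and 14.6 FPKM with *Xbp1* siRNA. The highest library with *Xbp1* siRNA was thus well under the lowest control. The mean was 26.8 ± 0.533 FPKM (SD, n = 3) in the controls, and the 15.8 ± 1.05 FPKM (SD, n = 3) left after silencing was 59.0% of it. Its log2 fold change of −0.76 (standard error 0.061, 95% interval −0.90 to −0.62, adjusted p = 7.48e-05, limma) was the largest in size among the 6 genes under the fit as reported.

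*Nlrc5*, the transactivator, was weakly expressed. It was at 0.219, 0.254 and 0.198 FPKM with control siRNA and at 0.314, 0.343 and 0.227 FPKM with *Xbp1* siRNA, and *Xbp1* siRNA replicate 3 fell within the range of the controls. Its log2 fold change was 0.28, with a 95% interval from −0.47 to 1.02 (adjusted p = 0.531, limma), and no change was detectable at this level. The FPKM of *Nlrc5* did not fall on whole multiples of a common step, so its reads could not be counted.

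FPKM is scaled by length, so levels can be set side by side between genes. With control siRNA the order of mean levels was *B2m*, *Tapbp*, *Erap1*, *Tap2*, *Tap1* and *Nlrc5*, and no neighbours in that order overlapped between libraries. *Erap1* was then 1.25-fold above *Tap2*, and *Tap1* was 55.2-fold above *Nlrc5*. With *Xbp1* siRNA *Erap1* moved from the third to the fifth place, under *Tap2* and *Tap1*. There its mean was 15.8 FPKM and that of *Tap1* 17.0 FPKM, and their libraries overlapped.

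A ratio of 2 genes within a library does not change when the library is multiplied by a factor, and 6 were compared by two-sided exact permutation tests over libraries. The level of *Tap1* as a percentage of *Tap2* was 56.5%, 56.9% and 60.2% with control siRNA and 64.2%, 69.8% and 68.1% with *Xbp1* siRNA, without overlap (exact p = 0.1, the smallest this design allows; 0.2 after adjustment over the 6 ratios). *Tapbp* was at 38.9%, 34.8% and 38.8% of *B2m* with control siRNA and at 40.5%, 41.3% and 39.1% with *Xbp1* siRNA, again without overlap (exact p = 0.1, adjusted 0.2) but with a gap far smaller than the spread of the controls. Without control replicate 2 the difference of this log2 ratio went from 0.11 to 0.05. These ratios cannot pass an adjusted threshold with 3 libraries a group.

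The remaining steps of the class I pathway, other partners of *B2m* and class II genes as a comparison were described with 8 further lists. They hold 49 genes in all, of which 42 were tested. Of these 12 (28.6%) passed higher and 10 (23.8%) passed lower, and their median was 0.02 on the log2 scale, beside 20.2% in each direction and a median of 0.00634 over all genes tested. Scaling to the same sum gave 21 higher and 4 lower, beside 4555 higher and 1869 lower of 14367 genes tested. Quantile normalization gave 15 higher and 5 lower, beside 3115 higher and 2653 lower of 14361. The number lower was 6 without control replicate 3 and without *Xbp1* siRNA replicate 1 or 2. In these fits 2610, 2585 and 2573 of all genes passed lower, against 2904 with all libraries.

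Partners of the peptide loading complex and the enzymes that fold class I heavy chains gave 5 of 8 genes higher and 1 lower, beside 20.2% of all genes in each direction, and the median of the list was 0.17 on the log2 scale, beside 0.00634 for all genes. *Calr*, the gene of calreticulin, had 615, 604 and 601 FPKM with control siRNA and 711, 704 and 736 FPKM with *Xbp1* siRNA (log2 fold change 0.24, adjusted p = 0.000551, limma), and its change was 0.57 after quantile normalization and 0.38 after scaling to the same sum. *Pdia3*, the gene of ERp57, rose by 7.71%, from 304 ± 5.13 to 327 ± 4.13 FPKM (SD, n = 3 each; adjusted p = 0.0191, limma), and did not pass without control replicate 2 or *Xbp1* siRNA replicate 2 or 3 (adjusted p of 0.0754, 0.0617 and 0.0655) or without the trend (adjusted p = 0.0952, limma). Its log2 fold change of 0.11 became 0.26 after quantile normalization and 0.24 after scaling to the same sum, and it passed in both (adjusted p = 0.000365 and 0.000467). The glucosyltransferases of glycoprotein quality control, *Uggt1* and *Uggt2*, rose by 43.8% and 57.1% (log2 fold changes 0.52 and 0.64, adjusted p = 0.000288 and 0.00131, limma). Glucosidase II, which removes glucose so that calreticulin binds and releases its clients, split by subunit. *Prkcsh*, its regulatory subunit, rose from 97.1 ± 5.38 to 149 ± 8.82 FPKM (SD, n = 3 each; log2 fold change 0.62, adjusted p = 0.00014, limma). *Ganab*, the catalytic subunit, fell from 154 ± 1.69 to 140 ± 2.33 FPKM (SD, n = 3 each; log2 fold change −0.14, adjusted p = 0.00801, limma), a difference that did not pass after quantile normalization (−0.03) or scaling to the same sum. *Canx*, the gene of calnexin, had a log2 fold change of 0.08 (95% interval −0.01 to 0.18, adjusted p = 0.127, limma) and did not pass, but it passed after quantile normalization (0.23, adjusted p = 0.0045) and after scaling to the same sum (0.22, adjusted p = 0.00527). *Tapbpl*, which encodes the tapasin-related editor TAPBPR, had 34.2 ± 2.57 and 33.2 ± 2.56 FPKM (SD, n = 3 each), a log2 fold change of −0.04 (95% interval −0.22 to 0.13), whose sign turned to 0.01 and 0.09 under those 2 settings.

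**Figure D2:**
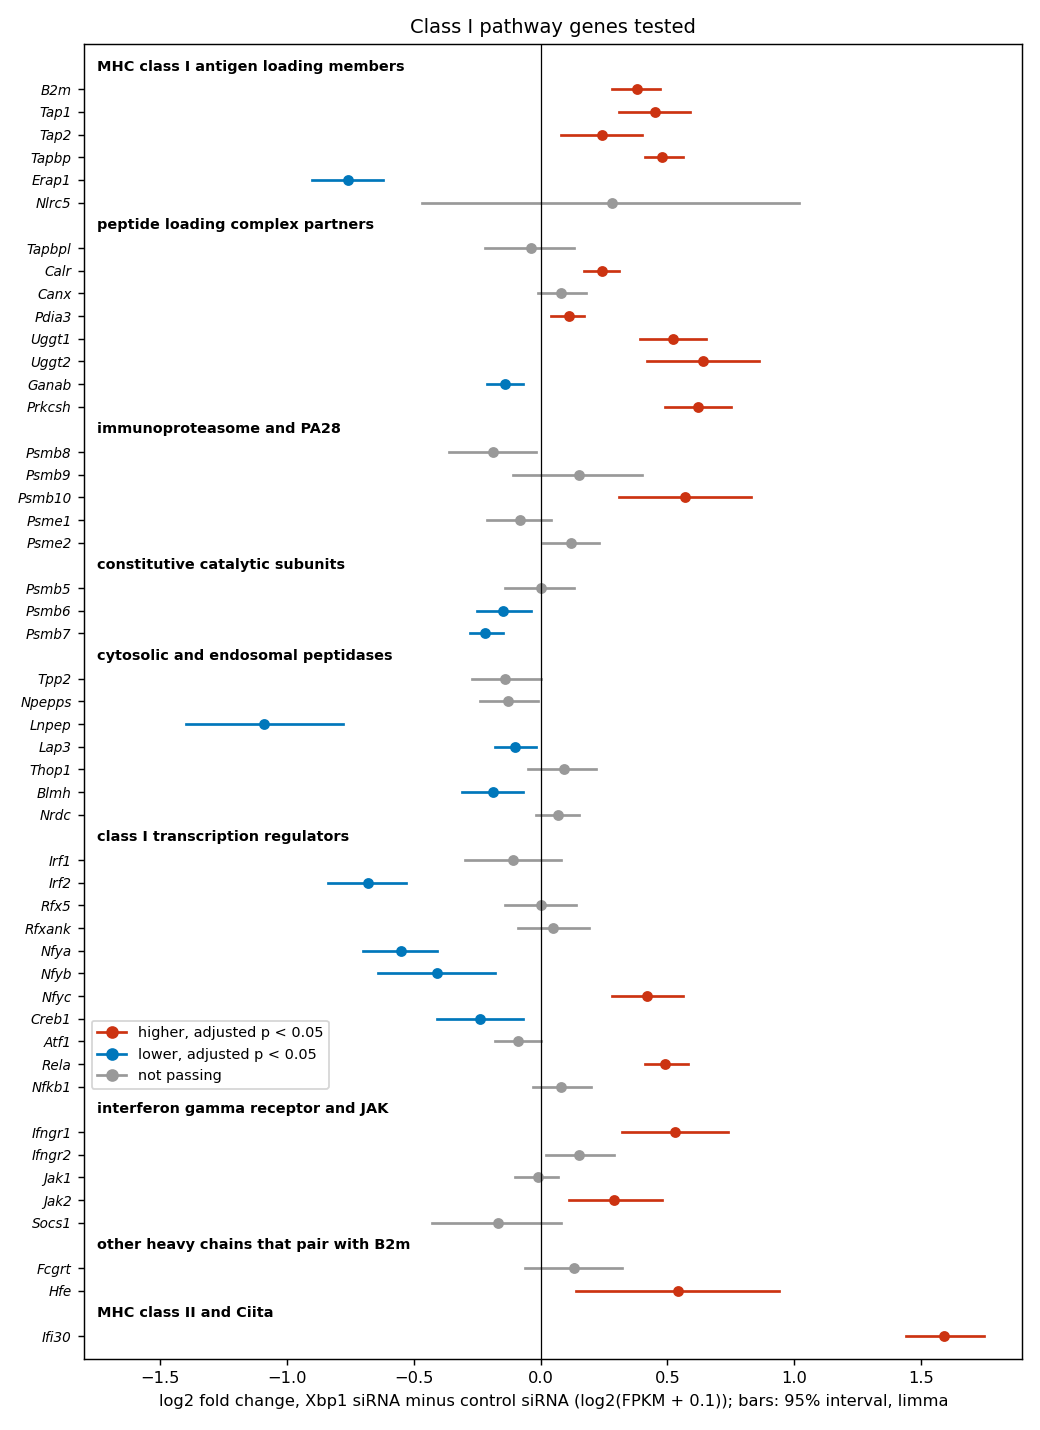
Log2 fold change (*Xbp1* siRNA minus control siRNA, horizontal axis) of each tested gene of the class I pathway and comparison lists, by list, with 95% intervals from limma. Red marks genes that passed higher, blue those that passed lower and grey those that did not pass. *Ifi30* belongs to the class II list. *B2m*, *Tap1*, *Tap2* and *Tapbp* lie between 0.24 and 0.48, *Erap1* at −0.76, *Lnpep* at −1.09 and *Ifi30* at 1.59.

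The immunoproteasome replaces the catalytic subunits of the standard proteasome with inducible ones and favours peptides that fit class I. Of its 3 inducible subunits and the 2 subunits of the PA28 activator, 1 passed higher (20.0%, beside 20.2% of all genes) and 0 passed lower. *Psmb10* had 16.9, 17.7 and 13.6 FPKM with control siRNA and 24.7, 21.4 and 25.2 FPKM with *Xbp1* siRNA, a rise of 47.9% (log2 fold change 0.57, adjusted p = 0.00536, limma). *Psmb8* had a log2 fold change of −0.19 (95% interval −0.36 to −0.02, adjusted p = 0.0721, limma), and *Psmb9* one of 0.15 (95% interval −0.11 to 0.40, adjusted p = 0.327). *Psmb9* was at 0.05 without control replicate 3, at 0.08 without *Xbp1* siRNA replicate 2, at 0.23 without control replicate 2 and at 0.28 with scaling to the same sum. *Psmb8* passed as lower without control replicate 2 (adjusted p = 0.0493), but was at −0.11 without control replicate 1 (adjusted p = 0.11) and at −0.05 with scaling to the same sum (adjusted p = 0.536). *Psme1* and *Psme2*, the PA28 subunits, had log2 fold changes of −0.08 and 0.12 (adjusted p = 0.245 and 0.0748, limma). *Psme2* passed as higher without control replicate 2 (adjusted p = 0.0259), after quantile normalization (0.00892) and after scaling to the same sum (0.00261). Of the standard subunits that these 3 replace, *Psmb7* fell from 364 ± 4.61 to 313 ± 3.67 FPKM (SD, n = 3 each; log2 fold change −0.22, adjusted p = 0.000615, limma), although after quantile normalization the change was −0.07 and did not pass. *Psmb6* passed as lower with −0.15 (adjusted p = 0.0352), but when single libraries were dropped it passed in only 2 of 6 fits, and it passed neither without the trend nor with quantile normalization nor with scaling to the same sum. *Psmb5* was at 197 FPKM in both groups.

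Set against the subunit it replaces, *Psmb10* went from 4.62%, 4.82% and 3.78% of *Psmb7* to 7.92%, 6.74% and 8.11%, a log2 difference of 0.79 (exact p = 0.1, the smallest possible; adjusted 0.2). The ratio of *Psmb8* to *Psmb5* was 29.4% ± 2.60 and 25.7% ± 1.54 (SD, n = 3 each), and that of *Psmb9* to *Psmb6* was 20.2% ± 3.08 and 24.7% ± 3.08 (SD, n = 3 each). Both overlapped between the groups (exact two-sided permutation p = 0.2 for each), as did the ratio of *Psme1* to *Psme2* (exact p = 0.2).

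**Figure D3:**
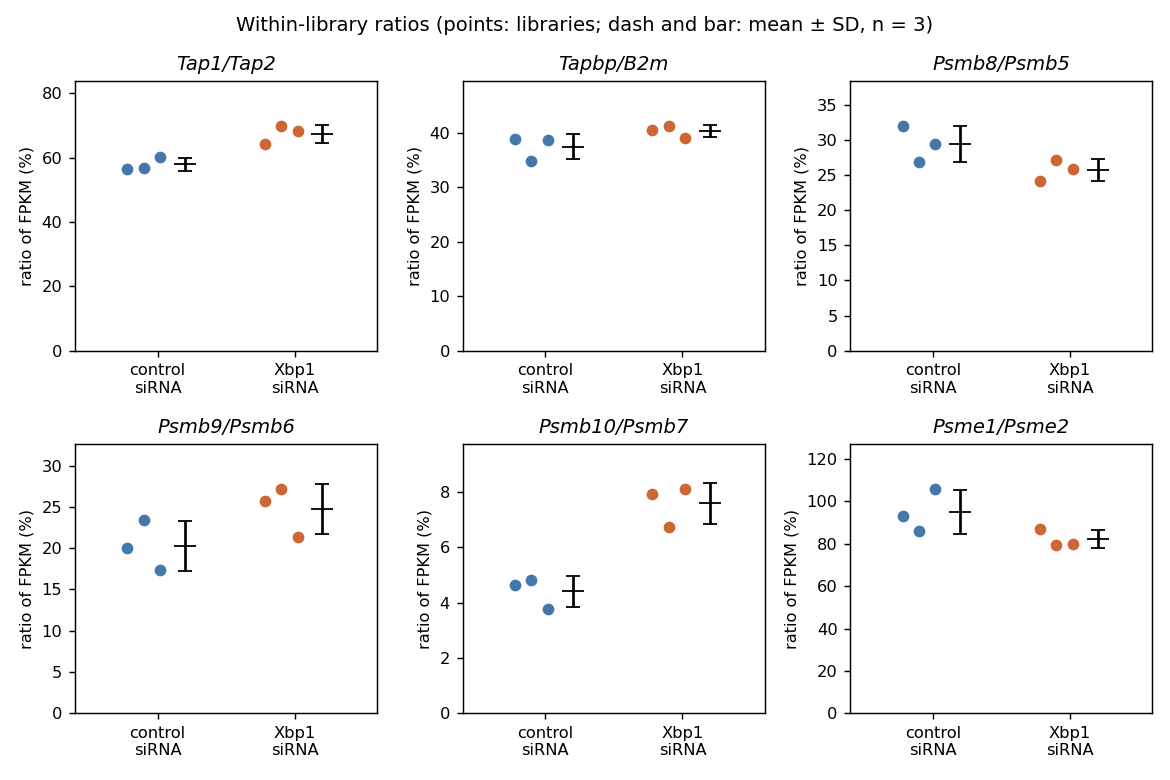
Ratio of 2 genes' FPKM in percent within each library (points) for 6 pairs, with control siRNA in blue and *Xbp1* siRNA in orange, each axis starting at 0, and the dash and bar giving mean and SD of 3 libraries. The groups separate for *Tap1*/*Tap2*, *Tapbp*/*B2m* and *Psmb10*/*Psmb7*, and overlap for the other 3.

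Among 7 peptidases outside the ER lumen that trim or destroy class I peptides, 0 passed higher and 3 lower, beside 20.2% of all genes in each direction. *Lnpep*, whose product IRAP trims peptides in endosomes and is a close relative of ERAP1, had 10.9, 13.6 and 14.3 FPKM with control siRNA and 5.53, 6.90 and 5.53 FPKM with *Xbp1* siRNA. The groups were far apart, and *Lnpep* was called lower (log2 fold change −1.09, 95% interval −1.40 to −0.78, adjusted p = 0.00056, limma). It was −0.99 with a pseudocount of 1 and −0.96 with scaling to the same sum, where it passed without reaching the size of 1. *Blmh*, the gene of bleomycin hydrolase, fell by 0.19 on the log2 scale (adjusted p = 0.0198, limma) and *Lap3*, that of leucine aminopeptidase 3, by 0.10 (adjusted p = 0.0469). *Lap3* did not pass in any of the 6 fits that left out 1 library, and its sign turned to 0.04 when the libraries were scaled to the same sum. *Blmh* did not pass without control replicate 3 or without *Xbp1* siRNA replicate 1 or 2, with adjusted p between 0.0561 and 0.0636, nor with quantile normalization, without the trend or with scaling to the same sum. *Tpp2*, *Npepps*, *Thop1* and *Nrdc* did not pass, with log2 fold changes from −0.14 to 0.09, although *Tpp2* passed as lower without control replicate 1 (adjusted p = 0.0402) and was at 0.00 on the log2 scale with scaling to the same sum (adjusted p = 0.979). *Thop1* passed as higher with scaling to the same sum (0.22, adjusted p = 0.0097), and *Nrdc* with that scaling (0.20, adjusted p = 0.00552) and with quantile normalization (0.12, adjusted p = 0.0364).

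Of 11 regulators of class I promoters tested, 2 passed higher (18.2%) and 4 lower (36.4%), beside 20.2% of all genes in each direction, and *Rfxap* was not matched. *Irf2*, an interferon regulatory factor that binds class I and *Tap1* promoters, fell from 15.8 ± 0.221 to 9.78 ± 0.562 FPKM (SD, n = 3 each; log2 fold change −0.68, adjusted p = 0.000165, limma). *Rela*, the p65 subunit of NF-kB, rose from 111 ± 1.24 to 156 ± 6.25 FPKM (SD, n = 3 each, log2 fold change 0.49, adjusted p = 5.59e-05, limma). The other NF-kB gene of the list, *Nfkb1*, did not pass (0.08, adjusted p = 0.226, limma). With scaling to the same sum *Nfkb1* passed as higher (0.22, adjusted p = 0.0121). Among the 3 subunits of NF-Y, which binds the CCAAT box of class I promoters, *Nfya* and *Nfyb* were lower, by log2 fold changes of −0.55 and −0.41, and *Nfyc* was higher by 0.42 (adjusted p = 0.00036, 0.0139 and 0.00112, limma). With scaling to the same sum *Nfyb* was at −0.27 and did not pass (adjusted p = 0.0665). *Creb1* was lower with −0.24 (adjusted p = 0.0328, limma), and of the 6 fits that left out 1 library it passed only in that without control replicate 1. With scaling to the same sum it was at −0.11 (adjusted p = 0.312). *Irf1*, the interferon-induced activator of *Tap1*, had a log2 fold change of −0.11 (95% interval −0.30 to 0.08, adjusted p = 0.333, limma). It was at −0.18 without control replicate 1, at −0.05 without control replicate 3 and at −0.07 without *Xbp1* siRNA replicate 2. *Rfx5* and *Rfxank*, subunits of the RFX complex with which NLRC5 acts, had 0.00 and 0.05 and did not pass, although *Rfxank* passed as higher with scaling to the same sum (0.18, adjusted p = 0.0352).

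Upstream of these, *Ifngr1*, a chain of the interferon gamma receptor, rose from 10.5 ± 0.983 to 15.2 ± 1.12 FPKM (SD, n = 3 each; log2 fold change 0.53, adjusted p = 0.00259, limma). The kinase gene *Jak2* rose by 23.0% (log2 fold change 0.29, adjusted p = 0.0211, limma), but it passed only without control replicate 3 or without *Xbp1* siRNA replicate 2 when single libraries were dropped, with an adjusted p between 0.0521 and 0.0748 in the other 4 fits. *Ifngr2*, *Jak1* and *Socs1* did not pass, with log2 fold changes of 0.15, −0.01 and −0.17. *Socs1* was at −0.09 without control replicate 1, at −0.11 without *Xbp1* siRNA replicate 1, at −0.27 without control replicate 3 and at −0.04 with scaling to the same sum. With scaling to the same sum *Ifngr2* (0.29, adjusted p = 0.00598) and *Jak1* (0.12, adjusted p = 0.0423) passed as higher, and *Ifngr2* also passed with quantile normalization (0.18, adjusted p = 0.0464).

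β2-microglobulin also pairs with heavy chains other than the classical ones. Of 5 such symbols 2 were matched. *Hfe*, whose product regulates iron uptake, had 4.23, 2.79 and 3.21 FPKM with control siRNA and 5.19, 5.38 and 4.29 FPKM with *Xbp1* siRNA (log2 fold change 0.54, adjusted p = 0.0398, limma). The lowest *Xbp1* siRNA library of *Hfe* was barely above the highest control, and the gene did not pass in 4 of the 6 fits that left out 1 library, with quantile normalization (adjusted p = 0.0712), without the trend (0.0679) or without the filter (0.0581). *Fcgrt*, the neonatal Fc receptor, had a log2 fold change of 0.13 (95% interval −0.06 to 0.32, adjusted p = 0.237, limma), and passed without *Xbp1* siRNA replicate 2 (0.22, adjusted p = 0.0204) and with scaling to the same sum (0.26, adjusted p = 0.0285), but was at 0.06 without *Xbp1* siRNA replicate 1. The classical heavy chain genes were not analysed here.

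Class II genes served as a comparison. *Ciita*, the class II transactivator and a relative of *Nlrc5*, was above 0 in 1 library only, at 0.0165 FPKM in *Xbp1* siRNA replicate 3. *Cd74*, the invariant chain, was above 0 only in control replicate 1 and *Xbp1* siRNA replicate 1, and *Ctss* only in *Xbp1* siRNA replicates 2 and 3. The smallest whole read number that fits these values is 1 in each such library, for all 3 genes. The fit does not fix the true number, which could be a multiple of it. The fourth gene of that list, *Ifi30*, encodes the lysosomal thiol reductase GILT and rose from 33.3, 31.1 and 28.8 FPKM to 99.2, 95.1 and 87.8 FPKM (log2 fold change 1.59, 95% interval 1.44 to 1.75, adjusted p = 5.03e-06, limma), a larger change than that of any of the 6 loading genes in this fit.

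*Tap1*, *Tap2*, *Psmb8* and *Psmb9* sit together in the MHC region, and *Erap1* and *Lnpep* are neighbours as well. The 3 protein-coding genes on each side of each loading gene were therefore read from RefSeq's gene table of the Chinese hamster assembly CriGri-PICRH-1.0. Genes were ordered by chromosome name and start position only. Separate sequences under the same name could thus be mixed in this order, and whether listed neighbours are true neighbours was not checked. These neighbours were chosen with their values already seen. No RefSeq gene of that assembly overlaps any of the 6. Outside the 6 genes there were 31 such neighbours, of which 19 were tested, 5 passed higher and 6 passed lower, beside 20.2% of all genes in each direction. The listed order was *Psmb9*, *Tpt1*, *Tap1*, *Psmb8*, *Tap2* and *Gtf2f2*, and it was not checked that *Tpt1* and *Gtf2f2* lie in the MHC region. The 2 TAP genes passed as higher, and *Psmb9*, *Tpt1* and *Psmb8* did not pass. *Gtf2f2*, a subunit of the general transcription factor TFIIF, was lower (log2 fold change −0.42, adjusted p = 0.000966, limma). Beyond *Psmb9*, LOC100761082 rose from 0.411 ± 0.0604 to 1.95 ± 0.507 FPKM (SD, n = 3 each; log2 fold change 1.98, adjusted p = 0.000665).

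Around *Erap1*, *Lnpep* and *Erap1* were both lower while *Cast*, the calpastatin gene on the other side of *Erap1*, was higher by 0.18 on the log2 scale (adjusted p = 0.0317, limma). The 2 genes between *Lnpep* and *Erap1* in that order were listed at 0 or fell under the filter. Next to *Tapbp* in that order, *Rgl2* and *Daxx* were higher by 0.34 and 0.27 (adjusted p = 0.00495 and 0.00876, limma), and *Wdr46* was lower (−0.24, adjusted p = 0.0269). LOC113832527, listed directly beside *Tapbp*, was lower too (5.18 to 3.27 FPKM, −0.65, adjusted p = 0.00786, limma), and *Pfdn6* and *Kifc1* did not pass. Of the 6 neighbours of *B2m*, *Spg11* and *Eif3j* were tested, with log2 fold changes of −0.02 and −0.44 (adjusted p = 0.879 and 0.000868, limma). *Cpne2*, next to *Nlrc5*, was called higher (log2 fold change 1.32, adjusted p = 0.000546, limma), *Herpud1*, on the other side, passed as lower (−0.25, adjusted p = 0.00421), and *Rspry1* did not pass.

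**Figure D4:**
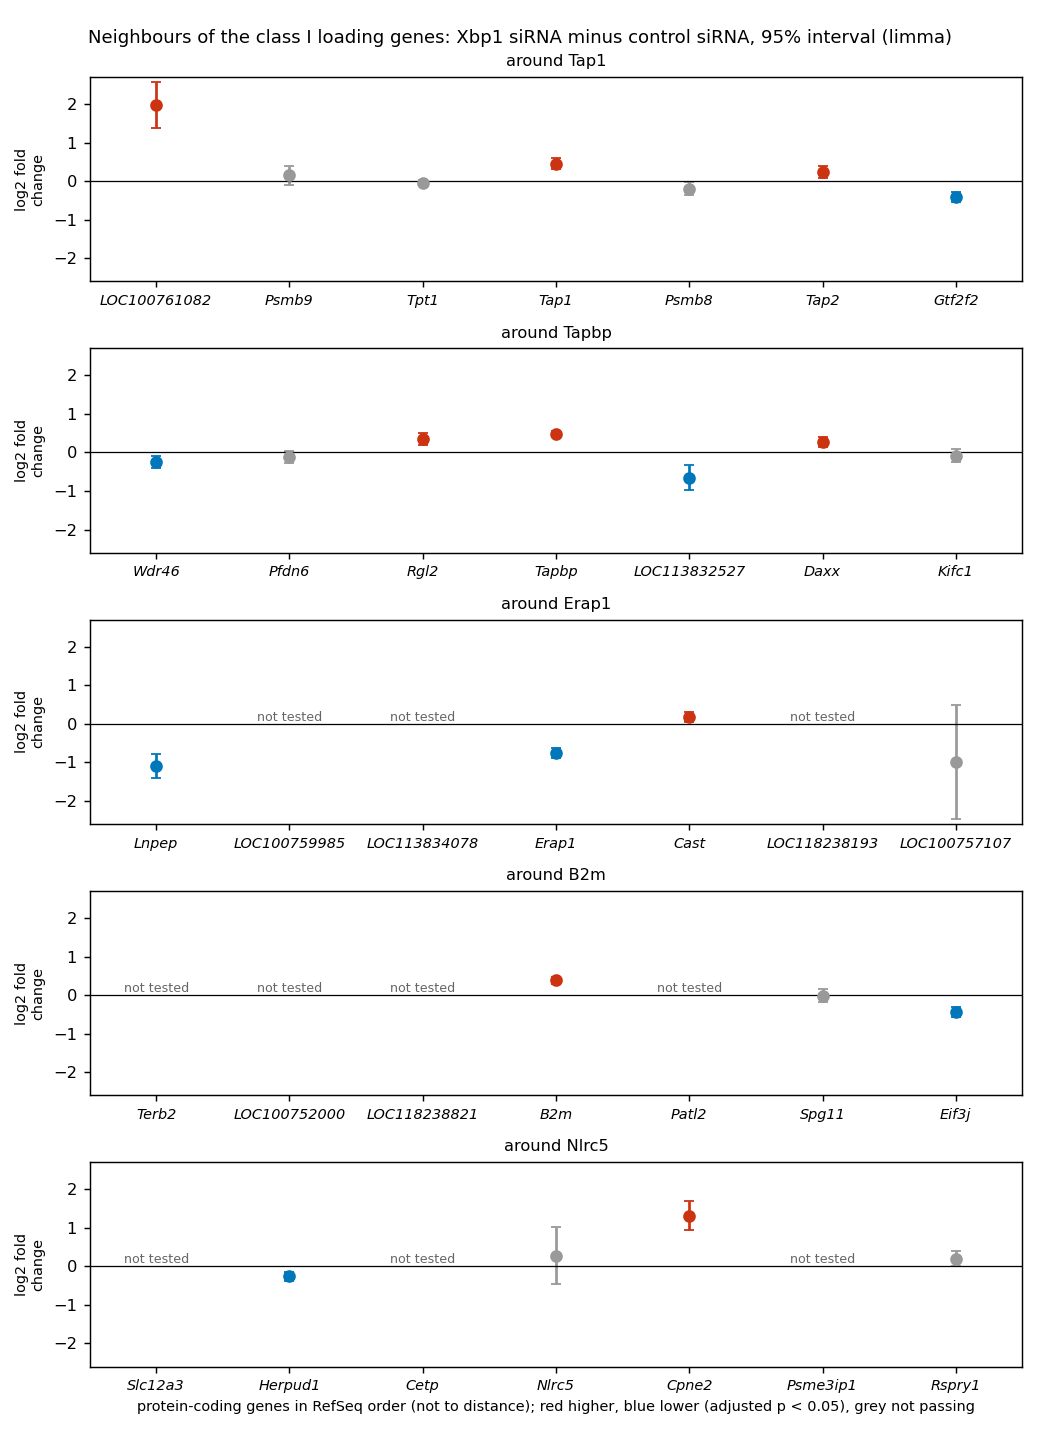
Log2 fold change (*Xbp1* siRNA minus control siRNA, vertical axis) with its 95% interval from limma for the 3 protein-coding genes listed on each side of *Tap1*, *Tapbp*, *Erap1*, *B2m* and *Nlrc5*, ordered by chromosome name and start in RefSeq and not to distance. Red passed higher, blue lower, grey did not pass. *Tap1* and *Tap2* are higher at 0.45 and 0.24 with *Psmb8* between them at −0.19, and *Lnpep* and *Erap1* are lower at −1.09 and −0.76 with *Cast* at 0.18.

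Genes with a like pattern were ranked by Pearson r over the 6 libraries among 9373 genes with a mean of at least 1 FPKM and a symbol other than a LOC number. With 2 conditions such an r mostly follows the difference between them, and it is given as a description. The genes most like *B2m* were *Slc50a1* (r = 0.9995), *Tmem175* and *Atp2c1*, those most like *Tap1* were *Inpp5d* (r = 0.9997), *Tmem38a* and *Prkcsh*, and those most like *Erap1* were *Tmbim1* (r = 0.9992), *Socs5* and *Xbp1* itself (r = 0.9987). *Tapbp* was most like *Mprip* (r = 0.9996), an entry listed as Sep-03, and *Atp10a*. *Tap2* was most like *Fbxl2* (r = 0.9979), an entry listed as Sep-01, and *Fuca1*. For *Nlrc5* the first were *Rab35* (r = 0.9871), *Ormdl2* and *Paip1*. At least 0.95 was reached by 755 genes for *B2m*, 962 for *Tap1*, 170 for *Tap2*, 1120 for *Tapbp*, 1178 for *Erap1* and 15 for *Nlrc5*, so that the leading genes are few among many.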

How the data were processed

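Per the labels and the study's methods, total RNA of 6 libraries was prepared as stranded mRNA libraries, and the authors deposited 1 table of FPKM values per library. The submitters' processing notes name HISAT2 2.1.0 and Cuffdiff 2.2.1; the genome build and annotation are not given in the sources used here. FPKM values are not counts, and no count model was fitted. After adding 0.1 FPKM and taking log2, rows with a mean of at least 0.1 FPKM entered limma 3.58.1 (R 4.3.3, eBayes with trend), and p-values were adjusted by Benjamini-Hochberg over all of these rows. The procedure was also run on simulated data with 200 of 14361 genes changed, drawn from the more abundant genes. It recovered 64.8% of changes of 0.4 on the log2 scale, 93.2% of changes of 0.7 and 99.4% of changes of 1.5. On average 5.8, 9 and 9.1 unchanged genes then passed. Ratios were compared by exact permutation tests in Python 3.11.15 with scipy 1.17.1.

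Total read numbers are not in the files. Low FPKM values lie on steps taken as 1 read, which gave the relative depth of the libraries. For very weak genes the smallest whole read numbers that fit within 0.03 reads are given. For a gene above 0 in 1 library only, that number is 1 whatever its level. Of 27311 symbols 88.0% were found in RefSeq's gene table of assembly CriGri-PICRH-1.0, used for names and gene order only. The 721 rows whose symbol is repeated were kept apart, and none is a gene named here. Across genes, log2 values of libraries of the same condition correlated with r between 0.966 and 0.972.

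The 6 genes and the pathway lists were chosen with earlier results of these data known. Named are the 6 genes, *Xbp1*, every pathway or marker list gene that passed, list genes that a comparison turns on, the 3 genes most like each of the 6, neighbours that passed, and, chosen after their values were seen, some neighbours that did not. The alternatives tried were adding 1 or 0.01 instead of 0.1, filtering at 1 FPKM or not at all, median-ratio, quantile and equal-sum scaling, no trend, a replicate block, and leaving out each library. Promoter sequences and class I heavy chain genes were not analysed here, and 1 further regulator and 1 further immune marker are not reported here.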

Additional observations from a re-analysis of the deposited data

How the results depend on the processing

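For the 6 loading genes 89 values were recomputed under up to 15 alternatives, and 85 kept their direction and their side of an adjusted p of 0.05, 4 kept the direction but no longer passed, and 0 reversed. The 4 all belong to *Tap2*, which had a log2 fold change of 0.24 without the trend and 0.18 to 0.28 in the fits with 1 library removed, and from 3 to 4 of the genes then passed as higher. Across all alternatives *B2m* lay between 0.35 and 0.53, *Tap1* between 0.42 and 0.59, *Tap2* between 0.18 and 0.37 (the highest with scaling to the same sum, adjusted p = 0.00291, limma), *Tapbp* between 0.47 and 0.62, *Erap1* between −0.79 and −0.63, *Nlrc5* between 0.08 and 0.41 and *Xbp1* between −3.89 and −3.28. With a filter at 1 FPKM *Nlrc5* was not tested. Scaling to the same FPKM sum gave 0.51 for *B2m* and −0.63 for *Erap1*, to be read beside the median of 0.136 for all genes, and it passed 21 pathway list genes as higher and 4 as lower and passed 4555 of all genes higher and 1869 lower. Quantile normalization passed 15 list genes higher and 5 lower, beside 3115 and 2653 of all genes. Leaving out each library gave 10 to 11 list genes higher and 6 to 9 lower. Of all genes 2294 to 2640 then passed higher and 2522 to 2676 lower, against 2898 and 2904 with all libraries. A pseudocount of 1 left 114 of all genes called higher and 205 lower, against 386 and 359, because it shrinks the change of weak genes. A filter at 1 FPKM, which leaves out weak genes, had 242 called higher and 296 lower of 11610 tested. There 2800 genes passed higher, against 2898 of 14361 in the fit as reported.

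The labels share replicate numbers between the groups, but same-numbered libraries did not deviate together from their groups (r over all genes −0.029, −0.027 and −0.012), so the numbers were not taken as pairs. With the replicate block the log2 fold changes were 0.38 for *B2m* (adjusted p = 0.00261, limma), 0.45 for *Tap1*, 0.24 for *Tap2* (adjusted p = 0.0119), 0.48 for *Tapbp*, −0.76 for *Erap1* and 0.28 for *Nlrc5*. It passed 4 of these genes higher and 1 lower and 12 and 9 of the list genes, with −3.78 for *Xbp1* and, of all genes, 2767 passing higher and 2875 lower. Among the list genes *Lap3* lost its pass under the block (adjusted p = 0.0705, limma).

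Among 630 values for the list genes, 47 were weaker, 16 stronger and 22 reversed. The reversed values belong to genes near 0. With scaling to the same sum they were 0.09 for *Tapbpl*, 0.05 for *Psme1*, 0.13 for *Psmb5*, 0.01 for *Npepps*, 0.04 for *Lap3*, 0.03 for *Irf1*, 0.13 for *Rfx5*, 0.04 for *Atf1* and 0.12 for *Jak1*, and with quantile normalization 0.01 for *Tapbpl*, 0.14 for *Psmb5*, 0.02 for *Rfx5* and 0.05 for *Jak1*. Over the fits that left out 1 library, *Tapbpl* ranged from −0.10 to 0.00, *Psmb5* from −0.04 to 0.06, *Rfx5* from −0.04 to 0.04 and *Jak1* from −0.03 to 0.01. Direction is not resolved for these genes. Of the ratios, none turned its direction, and the log2 difference of *Tap1* to *Tap2* lay between 0.19 and 0.25. The cause of these shifts was not tested. FPKM values carry no read totals, so the counting error of the stronger genes is unknown.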
